A study of Mus musculus with 3 samples.

Results

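The genes described here are those of the axoneme of the sperm tail whose symbols begin with Dnah, Dnaic, Dnal, Dnali, Rsph or Cfap followed by a number. These are dynein chains, radial spoke proteins and cilia- and flagella-associated proteins. Of 22843 genes measured, 53 had such a symbol, and 52 had at least 1 UMI (a unique molecular identifier, which marks 1 captured RNA molecule) in each of the 3 libraries and were taken as members. Rsph4a, a radial spoke head gene, was left out because it had 0 UMIs in the control library. Beyond that minimum, the members were chosen by name and not by their level or by how they differed between libraries.

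The libraries came from testes of ICR mice injected on postnatal day 21 with an AAV9 vector that carried RFP, a red fluorescent protein, and a short hairpin. The hairpin was either a control (shCtrl) or 1 of 2 directed at the long non-coding RNA gene Gm4665 (shRNA1 and shRNA2, called hairpin 1 and hairpin 2 here). RFP-positive germ cells were sorted after somatic cells had been removed, and each library was made from 3 mice of 1 condition. All groups carried the vector and a hairpin, and no label names the promoter that drove it. The protocol describes control and knockdown injections into opposite testes of a mouse, so conditions may share mice, and the labels do not tie cells to a mouse. There were 1418 control cells (40405313 UMIs), 1732 cells with hairpin 1 (38330044 UMIs) and 1873 cells with hairpin 2 (44640351 UMIs). With 1 library per group there is no replicate, so no test was made. Intervals are 95% exact Poisson intervals for levels and exact conditional intervals for ratios, and they cover counting error only.

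The axoneme is a ring of doublet microtubules around a central pair. Outer and inner dynein arms on the doublets are the motors, the radial spokes carry signals from the central pair to the arms, and many Cfap proteins sit inside the doublets, at the base of the spokes or on the central pair. Male germ cells transcribe these genes from meiosis onwards and build the tail after meiosis, and several dynein and spoke genes have a sperm form and a form of motile cilia.

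Because the results turn on when the members are transcribed and on Dnah8, promoter sequences are shown first. RefSeq promoters (GRCm38.p6, 250 bases before to 50 bases after the start) matched 44 of the 52 members by symbol. The X-box, the site of RFX factors that act on ciliary genes, was searched on both strands as GTNNCC and GNAAC with 3 bases of any kind between them. It was found in 5 of 44 members (11.4%) and in 472 of 15606 genes of the table with a promoter (3.02%). The matches are given along the strand of the gene, each with the distance of its first base from the start. They lie at -23 bases for Cfap206, -27 for Cfap44, -19 for Cfap45, -8 for Cfap61 and -159 for Dnah17.
Cfap206: GTTTCCACGGTTAC
Cfap44: GTTGCTATGGCAAC
Cfap45: GTTGCTATGGTAAC
Cfap61: GTTTCCTTAGCAAC
Dnah17: GTCACCAGCGCAAC
The cAMP response element, TGACGTCA, the site of CREM in spermatids, was found in 1 member, Dnah6, or 2.27%, against 2.91% of genes. The search found letters and not sites in use. The 250 bases before the start of Cfap45, one of the most abundant members, are shown with the X-box in capitals; they open the plus-strand window chr1:172520880-172521179.
Cfap45: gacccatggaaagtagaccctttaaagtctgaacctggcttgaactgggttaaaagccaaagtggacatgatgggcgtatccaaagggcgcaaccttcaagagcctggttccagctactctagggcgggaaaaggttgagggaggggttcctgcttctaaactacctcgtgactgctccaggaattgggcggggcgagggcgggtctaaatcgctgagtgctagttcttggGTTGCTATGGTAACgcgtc
The 250 bases before the RefSeq start of Dnah8 are shown because its level differed most between the libraries. They open the plus-strand window chr17:30626686-30626985, which also holds the starts of the genes Glo1 and 1700097N02Rik on the opposite strand (GENCODE vM21), and they contain neither motif.
Dnah8: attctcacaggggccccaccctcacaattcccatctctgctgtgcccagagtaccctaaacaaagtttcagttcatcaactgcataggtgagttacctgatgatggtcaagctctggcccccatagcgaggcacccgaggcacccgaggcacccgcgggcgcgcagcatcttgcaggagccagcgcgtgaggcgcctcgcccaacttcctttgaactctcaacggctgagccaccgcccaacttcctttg

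The libraries differed in depth and in their mix of cells. The median cell had 19366, 14667.5 and 16518 UMIs in the control, hairpin 1 and hairpin 2 libraries, and 5 to 7 cell barcodes were shared between any pair of libraries. Gm4665 itself stood at 311 UMIs per 1000000 (CPM) in control cells, 52.8 with hairpin 1 and 79.1 with hairpin 2. Clustering without the members gave 19 clusters, which were named from marker lists, so that each name below means cells like that class. Spermatogonia made up 3.81%, 8.60% and 9.50% of the cells of the 3 libraries in the same order, leptotene to zygotene spermatocytes 5.64%, 3.81% and 11.4%, and pachytene to diplotene spermatocytes 6.07%, 11.8% and 13.2%. Round spermatids made up 28.9%, 24.7% and 21.8%, and elongating and condensing spermatids 42.0%, 36.3% and 25.0%. Clusters of leukocyte-like cells, which remained after the sort, made up 1.48%, 5.54% and 9.77%. They are called non-germ cells here, and member UMIs in them are used as a background. Free RNA in the droplets, doublets and RNA of these cells themselves were not told apart in it. A cluster with Sertoli and elongating spermatid markers (cluster 6) was kept apart as mixed. Cluster 11, led by Gm6588, Ssxb2 and Ssxb1, scored best on the multiciliated epithelium list with 3 raised markers, but none of them was among its leading genes. It stayed unnamed and held 28, 86 and 65 cells.

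The members were not evenly expressed. Libraries of this kind capture the 3′ end, so CPM counts molecules and does not grow with gene length. The 4 most abundant members, Rsph1, Cfap36, Cfap206 and Cfap126, held 48.5% of all member UMIs, and the first 10 held 71.5%. Over the 3 libraries summed, the median member stood at 28.3 CPM, and 40 of 52 passed the filter for a comparison (a mean of at least 10 CPM and at least 30 UMIs). The 12 that did not were Dnah2, Dnah5, Dnah6, Dnah7c, Dnah10, Dnah11, Cfap46, Cfap54, Cfap73, Cfap74, Cfap99 and Rsph3b.

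**Figure D1:**
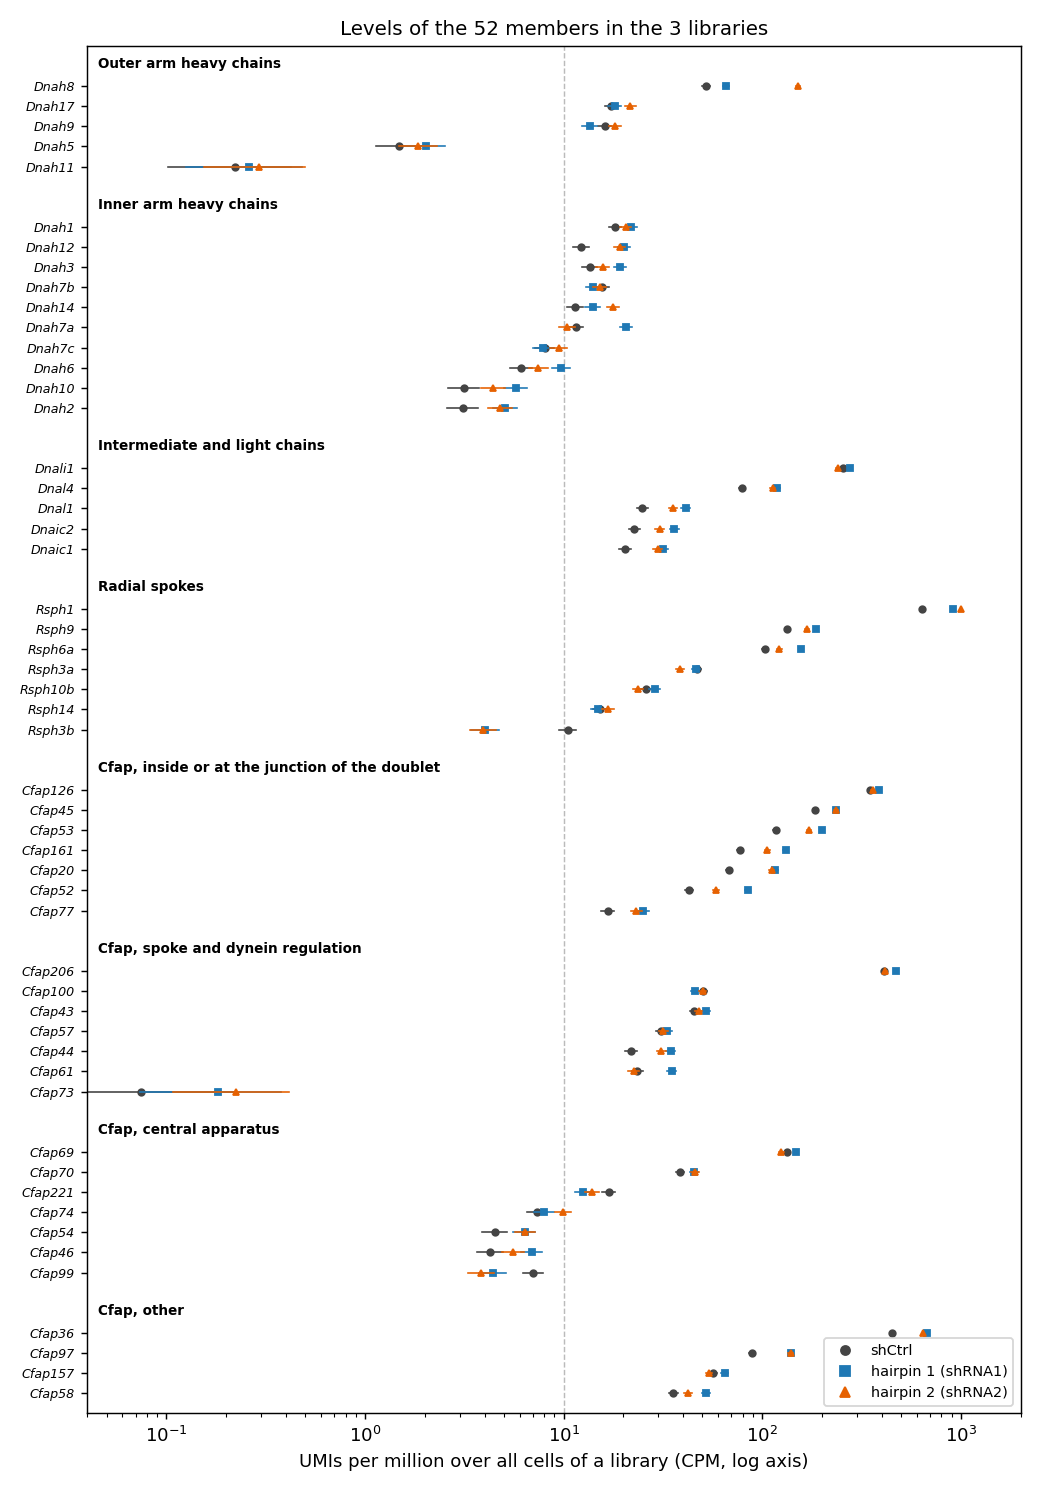
Level of each of the 52 members over all cells of the control (grey), hairpin 1 (blue) and hairpin 2 (orange) libraries, in CPM on a log axis, grouped by role; bars are 95% counting intervals and the dashed line is 10 CPM. Rsph1 is highest (636 to 1005 CPM), Dnah11 and Cfap73 are lowest, and Dnah8 is the member whose hairpin 2 point lies farthest above the other points.

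The outer arm heavy chains, the large motor subunits, include sperm forms and forms known from motile cilia. Dnah8, the sperm form of the gamma chain, stood at 52.3 CPM in control cells, 65.8 with hairpin 1 and 151 with hairpin 2. Its ciliary counterpart Dnah5 stood at 1.49, 2.04 and 1.86 CPM. Dnah17, the beta chain of sperm, stood at 17.4, 18.1 and 21.7 CPM. The ciliary beta chain Dnah9 was close to it, at 16.1, 13.5 and 18.2 CPM, while Dnah11, another ciliary beta chain, had 32 UMIs in all. The 10 inner arm heavy chains covered a narrow range, from 4.34 CPM (Dnah2) to 20.2 CPM (Dnah1) over the summed libraries.

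The smaller dynein chains ranged from 27.4 CPM (Dnaic1) to 256 CPM (Dnali1) and the spokes from 6.10 CPM (Rsph3b) to 857 CPM (Rsph1) over the summed libraries, so both overlapped the heavy chains. Dnali1, an inner arm light intermediate chain, stood at 254 CPM in control cells, 276 with hairpin 1 and 240 with hairpin 2. Dnal4, a light chain, stood at 78.8, 119 and 113 CPM, and the outer arm intermediate chains Dnaic1 and Dnaic2 lay between 20.4 and 36.1 CPM in every library. Rsph1, a spoke head protein, was the most abundant member, at 636 CPM in control cells, 917 with hairpin 1 and 1005 with hairpin 2. Rsph9 of the spoke head stood at 134, 187 and 169 CPM. Rsph6a, the sperm counterpart of Rsph4a, stood at 104, 157 and 122 CPM, against at most 0.157 CPM for Rsph4a in any library. Rsph1, Rsph9 and Rsph6a were lowest in the control library, as were 61.0% of all genes tested over all cells. The spoke genes Rsph3a (46.8, 46.3 and 38.8 CPM) and Rsph3b (10.5, 4.02 and 3.92 CPM) were highest in it.

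Among the Cfap genes, Cfap36 was highest, at 452 CPM in control cells, 677 with hairpin 1 and 642 with hairpin 2. Cfap206, a protein of the spoke base, stood at 411, 471 and 418 CPM. Cfap126, known for the placing of basal bodies and grouped here with the proteins of the doublet, stood at 349, 388 and 360 CPM. Cfap45 and Cfap53, which lie inside the doublet, stood at 185, 234 and 236 CPM and at 117, 201 and 172 CPM. Cfap69, a protein of the central apparatus, was at 134, 149 and 125 CPM. The other 6 genes of the central apparatus ranged from 5.07 CPM (Cfap99) to 43.3 CPM (Cfap70) in the summed libraries, with 4 of them under the filter.

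Across germ cell classes, most members had their highest level in meiosis. Of the 52 members, 30 peaked in pachytene to diplotene spermatocytes, 15 in round spermatids, 5 in leptotene to zygotene spermatocytes, 2 in elongating and condensing spermatids and 0 in spermatogonia. Unnamed cluster 11 was not among these classes. Some members stood higher in it than at their peak, such as Cfap126 (635 against 596 CPM) and Cfap45 (485 against 409 CPM). Others stood lower, such as Rsph1 (1273 against 2328 CPM). Of the 40 that passed the filter, 25 (62.5%) peaked in pachytene to diplotene cells, as did 29.5% of the 7068 genes that passed it. Another 12 (30%) peaked in round spermatids, against 21.4% of genes. Members made up 0.941%, 0.952% and 0.957% of the UMIs of pachytene to diplotene cells in the control, hairpin 1 and hairpin 2 libraries, and 0.122%, 0.160% and 0.170% of those of spermatogonia. In non-germ cells they made up 0.0683%, 0.160% and 0.133%, so the values in spermatogonia lay close to that background in the hairpin libraries.

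**Figure D2:**
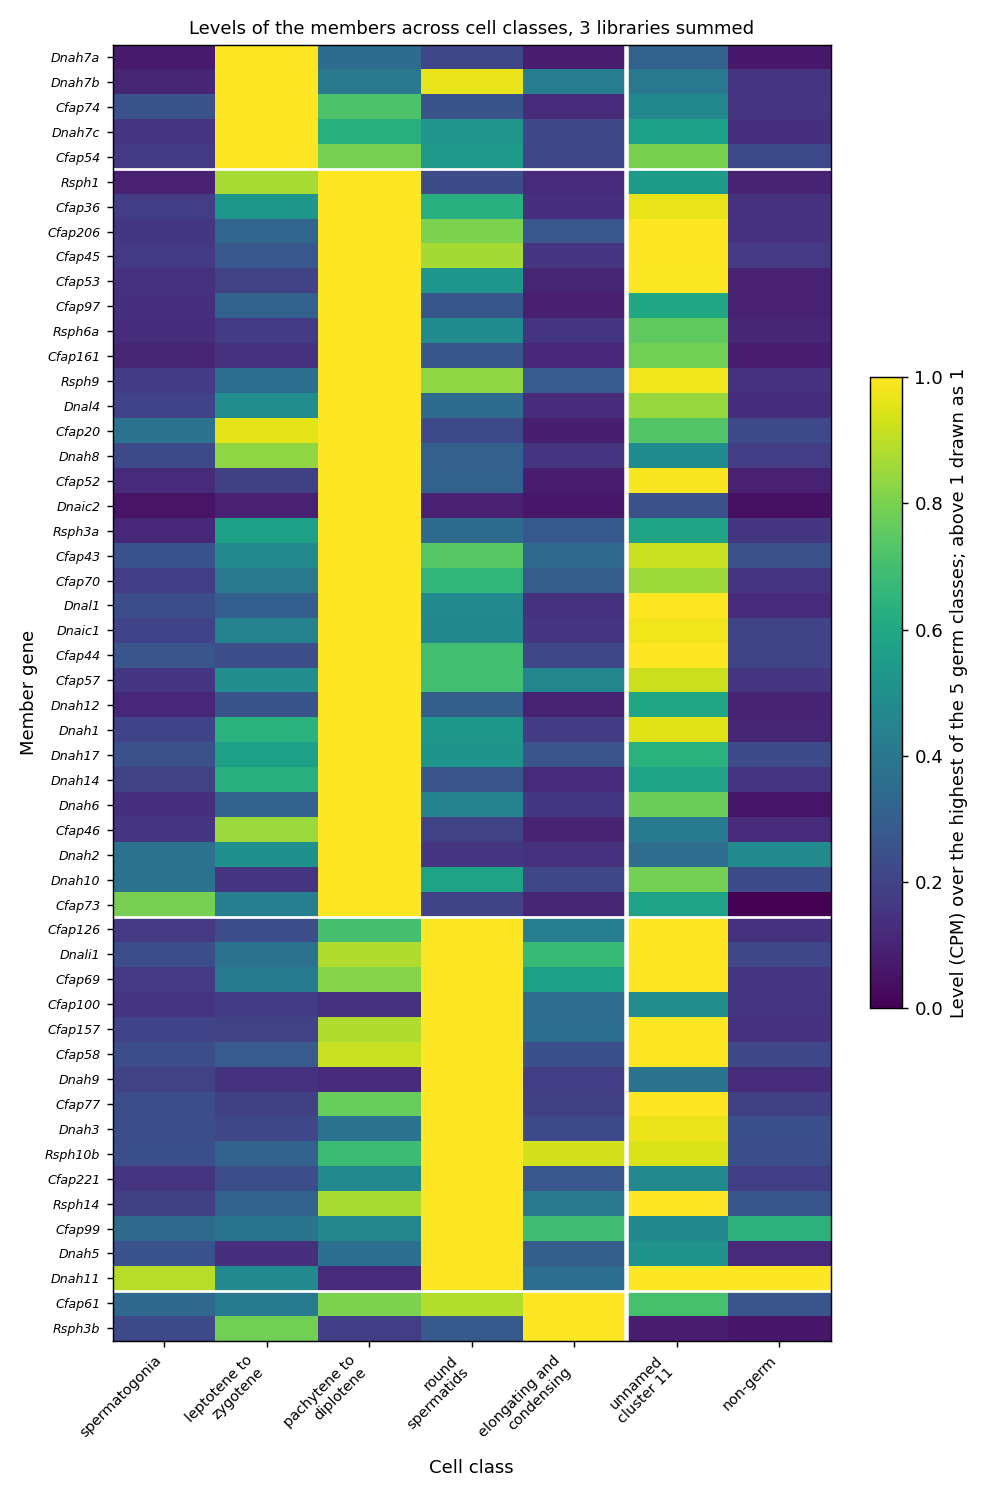
Level of each member in each class as a share of its highest level among the 5 germ classes, with the 3 libraries summed; cluster 11 and the non-germ cells are set apart at the right, and white lines separate the members by the class of their highest level. The block of 30 members with their highest level in pachytene to diplotene cells is the largest, followed by 15 in round spermatids. Levels above the highest of the 5 germ classes are drawn as equal to it.

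The members with a pachytene to diplotene peak came from every role. Rsph1 reached 2328 CPM there, after 2019 CPM in leptotene to zygotene cells, and was at 544 CPM in round and 283 CPM in elongating spermatids. Cfap36 reached 1240 CPM and Cfap206 783 CPM. Dnaic2, an outer arm intermediate chain, was the most restricted to this class of the members that passed the filter. It stood at 131 CPM against 12.1 CPM in round spermatids, its next highest germ class, and 5.97 CPM in non-germ cells. Dnaic1, its partner in the arm, reached 62.5 CPM in pachytene to diplotene cells and 29.2 CPM in round spermatids. Both genes peaked in this class in each library.

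The round spermatid group held members with low levels before the end of meiosis. Cfap100, linked to inner arm control, stood at 107 CPM in round spermatids and 15.6 CPM in pachytene to diplotene cells, where it was no higher than in non-germ cells (15.9 CPM). The ciliary chain Dnah9 stood at 41.6 CPM in round spermatids and 5.03 CPM in pachytene to diplotene cells, against 5.31 CPM in non-germ cells. After thinning every cell to 10000 UMIs, 29.9%, 34.8% and 40.6% of round spermatids in the control, hairpin 1 and hairpin 2 libraries had a UMI of Dnah9, and 0%, 4.65% and 7.64% of non-germ cells. At their own depth (medians of 15245.5, 9762 and 12984.5 UMIs in round spermatids and 13957, 9685.5 and 13007 in non-germ cells) the shares were 49.5%, 39.95% and 57.1%, and 4.76%, 3.13% and 9.29%. The inner arm chain Dnah3 stood at 33.3 CPM in round spermatids and 12.7 CPM in pachytene to diplotene cells. Dnah3 shares 1506 exonic bases with Lyrm1 on the opposite strand, and the sources used here do not give strand use in counting, so reads of the pair may be mixed.

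Other round spermatid members differed less between the classes. Cfap126 stood at 596 CPM in round spermatids against 421 CPM in pachytene to diplotene cells, Dnali1 at 343 against 303 CPM and Cfap69 at 194 against 158 CPM. All were higher still in unnamed cluster 11, at 635, 366 and 209 CPM. When UMIs per cell were used in place of CPM, the peak of these 3 moved to pachytene to diplotene cells, and 8 members in all stayed with a peak in round spermatids. Pachytene to diplotene cells held more UMIs per cell than round spermatids, with a median of 28638 to 48447.5 against 9762 to 15245.5 over the libraries. Cfap99 exceeded its non-germ level by only 1.55 times at its peak, and Dnah11 did not exceed it (0.420 against 0.442 CPM).

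The early group was small. Dnah7a, Dnah7b and Dnah7c, copies of an inner arm chain on chromosome 1, peaked in leptotene to zygotene cells at 58.0, 26.6 and 19.7 CPM. Dnah7b was almost as high in round spermatids, at 25.7 CPM. The last 500 bases of these 3 copies were 97.6% to 98.6% identical, so how their reads were divided is uncertain. Cfap74 (24.2 CPM) and Cfap54 (12.1 CPM), both of the central apparatus, completed the group. At the other end, Rsph3b was highest in elongating and condensing spermatids (10.99 CPM) and Cfap61, of the calmodulin- and spoke-associated complex, was at 32.8 CPM there and 29.1 CPM in round spermatids. Neither of these kept its peak class in each library, while 26 of the 30 pachytene to diplotene members and 13 of the 15 round spermatid members did.

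For the knockdown, a member was counted when it was at least 2-fold from the control in the same direction with both hairpins, on log2 of CPM plus 1. Both comparisons share the control library. Over all cells 0 of 40 members were counted as higher and 0 as lower, where 1.23% of 7068 genes were higher and 0.495% were lower. At the 1.5-fold level 3 of 40 members were higher, Cfap97, Cfap20 and Dnah12, where 11.4% of genes were, so the members' share over all cells was below that of all genes. By class, 9 of 31 members were higher in elongating spermatids (9.63% of genes) and 8 of 26 in spermatogonia (5.63%). In leptotene to zygotene cells 3 of 38 were (2.18%) and in round spermatids 3 of 41 (3.89%). The 1 of 44 in pachytene to diplotene cells was Cfap77 (1.31%). Some passed the filter only through the hairpin libraries, among them Cfap44 and Cfap70 in spermatogonia and Cfap54 in leptotene to zygotene cells. In elongating spermatids Dnaic1, Dnal1 and Cfap52 did. These shares are therefore not read as a result about the members. Over all cells the median log2 difference of the members was 0.41 with hairpin 1 and 0.24 with hairpin 2, against 0.23 and 0.25 for all genes. With TMM scaling the medians were 0.13 and -0.09 for the members and -0.04 and -0.08 for all genes, so the sign of the member median with hairpin 2 depended on the scaling. In summed cells, more cells of a class and more RNA per cell cannot be told apart, and protamine and transition protein transcripts, which take up the RNA of late spermatids, made up 12.1%, 9.24% and 8.40% of UMIs in the control, hairpin 1 and hairpin 2 libraries.

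Within the pachytene to diplotene class, where the members were most abundant, the libraries were close. The median log2 difference of 44 members was 0.04 with hairpin 1 and -0.05 with hairpin 2, against 0.01 and -0.02 for all genes. Of these members, 23 were above the control with hairpin 1 and 20 with hairpin 2. Rsph1 stood at 2424, 2256 and 2343 CPM in the control, hairpin 1 and hairpin 2 libraries, Cfap36 at 1166, 1277 and 1245, and Cfap206 at 818, 797 and 749. No member was counted as higher or lower with both hairpins, against 0.161% and 0.176% of 6816 genes.

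In spermatids the members lay above the control by more than genes at large. In round spermatids the median of 41 members was 0.37 with hairpin 1 and 0.23 with hairpin 2, against 0.12 and 0.08 for all genes, and 35 and 34 members were above the control, or 85.4% and 82.9% against 61.2% and 59.2% of genes. In elongating and condensing spermatids the median of 31 members was 0.39 and 0.32, against 0.06 and 0.03. There 29 and 27 members were above the control, or 93.5% and 87.1% against 57.7% and 53.5% of genes. Rsph1 stood at 188 CPM in these cells of the control, 325 with hairpin 1 and 376 with hairpin 2, and Cfap36 at 110, 206 and 215 CPM. The clusters that made up these classes differed between the libraries. Cluster 1 held 94 of 596 elongating cells in the control, 255 of 628 with hairpin 1 and 173 of 468 with hairpin 2, and Rsph1 stood at 427 CPM in it against 216 to 240 CPM in clusters 0, 7 and 10. Cluster 3 held 190 of 410 round spermatids in the control, 108 of 428 with hairpin 1 and 98 of 408 with hairpin 2, and Rsph1 stood at 301 CPM in it against 452 to 776 CPM in clusters 2, 9 and 12. With clusters weighted as in the control, the members' median less that of all genes went from 0.25 to 0.13 with hairpin 1 and from 0.15 to 0.09 with hairpin 2 in round spermatids. In elongating spermatids it went from 0.33 to 0.24 and from 0.28 to 0.34. No member was counted with both hairpins as higher or lower in round spermatids (0.455% and 0.258% of 6587 genes) or in elongating spermatids (1.78% and 0.277% of 5057 genes).

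The largest medians by role in elongating spermatids were those of the Cfap proteins inside or at the junction of the doublet, 0.82 with hairpin 1 and 0.77 with hairpin 2 over 6 members tested. Cfap161, an inner doublet protein, stood at 24.8, 43.7 and 46.1 CPM in the control, hairpin 1 and hairpin 2 libraries. Cfap53 stood at 28.3, 51.9 and 49.5 CPM, and Cfap20, of the inner junction, at 13.3, 28.4 and 23.5 CPM. In pachytene to diplotene cells, where 5 of the 7 peaked (Cfap126 and Cfap77 peaked in round spermatids), the group had medians of 0.16 and 0.12 over 7 members tested. Dynein intermediate and light chains had medians of 0.57 and 0.73 in elongating spermatids, and spokes 0.31 and 0.27.

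Summed pachytene to diplotene markers moved with these differences, both in spermatids and in non-germ cells. The summed level of 12 pachytene to diplotene markers in elongating and condensing spermatids was 299, 533 and 577 CPM in the control, hairpin 1 and hairpin 2 libraries, and in round spermatids it was 1102, 1545 and 1494 CPM. In non-germ cells, of which the control held 21, the same 12 markers summed to 272, 603 and 572 CPM. The list includes cell division genes such as Ccnb1 and Plk1, so RNA of these cells themselves was not told apart from free RNA. Rsph1 in non-germ cells stood at 88.8, 256 and 230 CPM and Cfap36 at 58.3, 230 and 174 CPM. Cfap53 was at 11.1, 47.4 and 35.8 CPM in these cells, Cfap20 at 38.9, 51.00 and 60.8 CPM, above its level in elongating spermatids, and Cfap161 at 24.98, 22.4 and 24.7 CPM, with no such difference. All 12 markers had UMIs in each of these classes. The 12 leptotene to zygotene markers summed to 88.6, 118 and 126 CPM in elongating and 293, 425 and 352 CPM in round spermatids. In non-germ cells that list went the other way, at 169, 94.8 and 83.1 CPM. The part of free RNA and of the class mix in the spermatid values was not tested. The 7 markers of multiciliated epithelium in the table, the other cell type that builds motile cilia, summed to 41.0, 59.3 and 58.4 CPM over all cells. In elongating spermatids they summed to 19.5, 21.1 and 25.4 CPM with Mcidas, which starts that programme, at 0, and in cluster 11 to 136, 144 and 154 CPM with Mcidas and Tmem212 at 0.

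**Figure D3:**
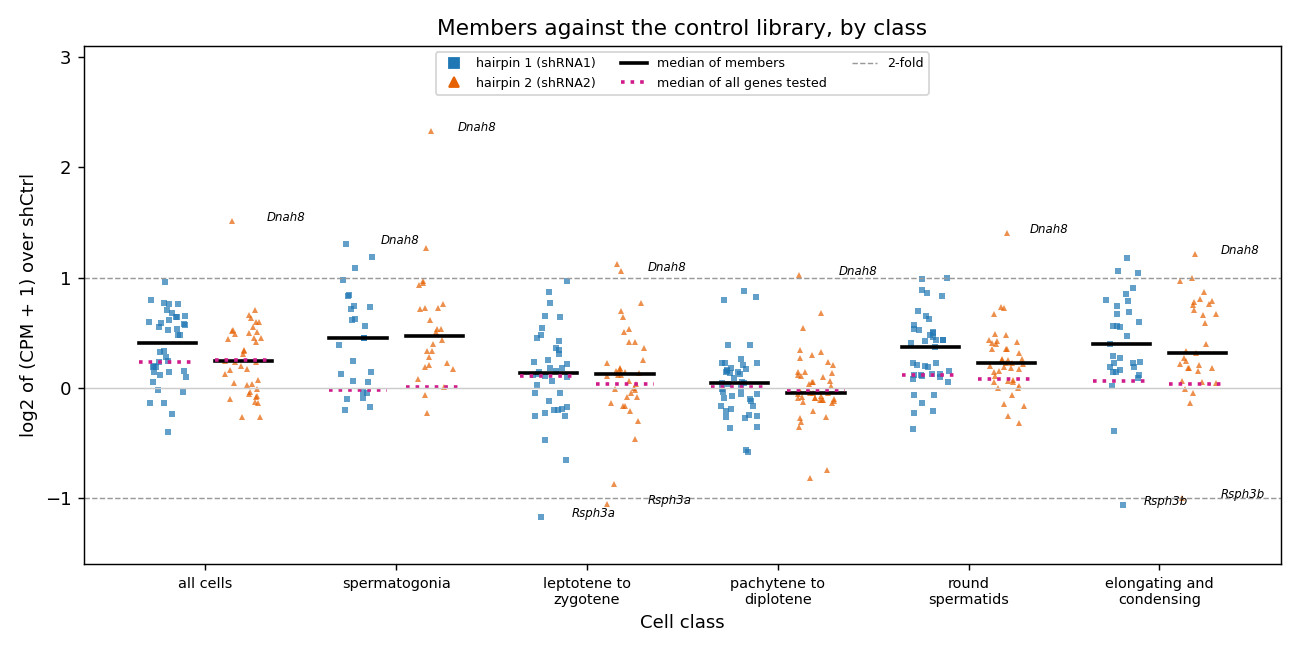
Log2 of CPM plus 1 over the control for each member that passed the filter, with hairpin 1 (blue squares) and hairpin 2 (orange triangles), over all cells and in each germ class; black bars are medians of the members, dotted bars medians of all genes tested and dashed lines 2-fold. The medians of members and of all genes lie together in pachytene to diplotene cells (0.04 and 0.01 with hairpin 1) and apart in elongating and condensing cells (0.39 and 0.06).

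In leptotene to zygotene cells the members' medians were 0.14 with hairpin 1 and 0.13 with hairpin 2, against 0.10 and 0.03 for all genes. In spermatogonia they were 0.45 and 0.47 over 26 members, against -0.02 and 0.01. The control held 54 spermatogonia. In these cells 2 members were counted as higher with both hairpins in these cells, Dnah8 and Cfap44, where 1.46% of 8976 genes were higher and 0.813% were lower. Cfap44, which tethers inner arms to the doublet, stood at 6.28, 15.6 and 16.5 CPM, from 5, 31 and 42 UMIs, and passed the filter only through the hairpin libraries. It had 8.33, 19.7 and 8.55 CPM in non-germ cells. Cfap44 was not called with a pseudocount of 5 CPM or a minimum of 30 CPM, Dnah8 was not called at Leiden resolution 0.5, and neither was called on mean ln values.

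Dnah8 separated the hairpins in every class. Over all cells its level with hairpin 2 was 2.89 times the control (interval 2.75 to 3.03) and 2.29 times that with hairpin 1 (2.19 to 2.40), while hairpin 1 was 1.26 times the control (1.19 to 1.34). Of 40 members it alone was at least 2-fold higher with hairpin 2 over all cells, where 7.61% of genes were. In pachytene to diplotene cells, its peak class, it stood at 170 CPM in control cells, 143 with hairpin 1 and 348 with hairpin 2. In leptotene to zygotene cells the values were 116, 121 and 243 CPM, in round spermatids 42.1, 60.2 and 113 CPM, and in elongating spermatids 24.7, 30.01 and 58.7 CPM. Hairpin 2 was highest in each class, and the control and hairpin 1 lay within 1.5 times of each other in these 4. In spermatogonia the control was lower, with 13.8, 35.7 and 73.4 CPM from 11, 71 and 187 UMIs. Non-germ cells held 16.7, 27.7 and 49.95 CPM of Dnah8, so the control value in spermatogonia lay below that background.

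The share of cells with a Dnah8 UMI moved the same way. After thinning to 10000 UMIs it was 36.0%, 47.1% and 65.0% of round spermatids in the control, hairpin 1 and hairpin 2 libraries, and 70.6%, 68.8% and 94.4% of pachytene to diplotene cells. The background in non-germ cells was 14.3%, 18.6% and 36.8%, at 16.7, 27.7 and 49.95 CPM. At their own depth the shares of round spermatids were 58.8%, 59.4% and 83.1%, and those of non-germ cells 19.0%, 26.0% and 49.7%. Thinning left out 70, 530 and 332 shallower cells of the libraries.

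Genes that start beside Dnah8 had the same order of libraries. Dnah8 lies at chr17:30624354-30877365 (mm10), and 1700097N02Rik, a long non-coding RNA at chr17:30622441-30626905, shares 207 exonic bases with it on the opposite strand. 1700097N02Rik stood at 247 CPM in control cells, 344 with hairpin 1 and 756 with hairpin 2, and in leptotene to zygotene cells at 544, 767 and 1759 CPM. Because strand use in counting is not given, reads from the shared bases cannot be assigned to 1 of the pair. Glo1, the glyoxalase gene, overlaps 1700097N02Rik on the same strand at chr17:30584936-30626871 and stood at 34.8, 45.3 and 79.7 CPM. Of 9 genes tested within 1 Mb, Dnah8 among them, 4 were at least 2-fold higher with hairpin 2, against 7.61% of all genes. They were Dnah8, 1700097N02Rik, Glo1 and U2af1, a splicing factor gene (29.2, 34.9 and 71.4 CPM). Btbd9, next to Glo1, was lower with hairpin 2 than in the control, at 43.8 against 56.2 CPM. Zfand3, on the far side of Btbd9, was also lower, at 406 against 573 CPM. Rsph1 lies in the same window at chr17:31255019-31277383. These neighbours were looked at after the Dnah8 values had been seen.

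**Figure D4:**
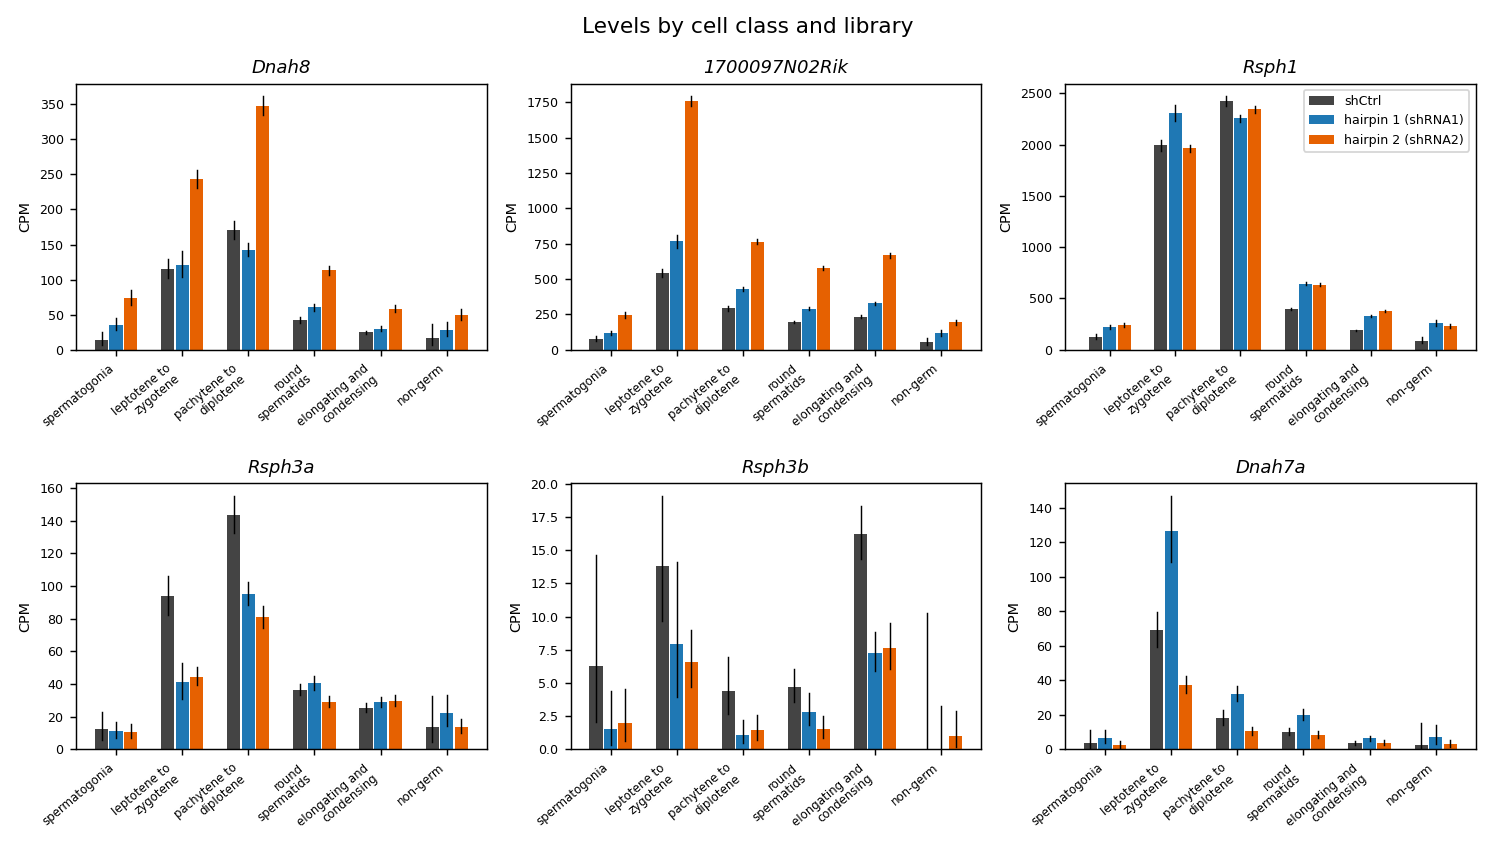
Levels of 5 members and of the non-coding neighbour 1700097N02Rik in each germ class and in non-germ cells, in CPM on linear axes from 0, for the control (grey), hairpin 1 (blue) and hairpin 2 (orange) libraries; lines are 95% counting intervals. Dnah8 and 1700097N02Rik are highest with hairpin 2 in every class, Rsph3b is highest in the control in every germ class, and Dnah7a is highest with hairpin 1 in every class.

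Rsph3a and Rsph3b are copies of a gene of the spoke stalk. Rsph3a was counted as lower in leptotene to zygotene cells, and Rsph3b fell just short in elongating spermatids. Rsph3b (chr17:6904413-6948682) stood at 10.5 CPM in control cells, 4.02 with hairpin 1 and 3.92 with hairpin 2, from 424, 154 and 175 UMIs. The ratios to the control were 0.383 (0.316 to 0.462) and 0.374 (0.311 to 0.447), but its mean lay under the filter of 10 CPM, so it was not counted over all cells. In elongating spermatids it passed the filter, only through the control library, at 16.2, 7.25 and 7.64 CPM, with log2 differences of -1.06 and -0.997, the second just short of 2-fold. With TMM scaling, or a pseudocount of 0.1 CPM, it was counted as lower there. After thinning, 14.6%, 6.596% and 7.67% of elongating spermatids had an Rsph3b UMI, against 0%, 0% and 0.694% of non-germ cells, of which 21, 43 and 144 were deep enough. Those counts of 0 allow shares of up to 16.1% and 8.22% (exact binomial limits). At their own depth the shares of elongating spermatids were 32.7%, 13.1% and 15.4%, and of non-germ cells 0%, 0% and 1.64%.

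Rsph3a (chr17:7945614-7979824) was the member counted as lower in leptotene to zygotene cells. It stood there at 93.8 CPM in control cells, 41.0 with hairpin 1 and 44.6 with hairpin 2, with log2 differences of -1.17 and -1.06. In that class 1.01% of 7599 genes were lower with both hairpins and 0.237% were higher. With hairpin 1 alone 7.5% of genes were lower, from 66 cells. The call was not made with a pseudocount of 5 CPM or under any of 3 other clusterings. In pachytene to diplotene cells Rsph3a stood at 143, 95.3 and 80.8 CPM, and in elongating spermatids at 25.5, 28.7 and 29.7 CPM, where the control was no longer the highest. Of the low members of the central apparatus, Cfap99 (7.05, 4.41 and 3.85 CPM) and Cfap221 (16.9, 12.6 and 13.9 CPM) were below the control over all cells, and Cfap54 (4.504, 6.37 and 6.43 CPM), Cfap74 (7.35, 7.98 and 9.92 CPM) and Cfap46 (4.26, 6.94 and 5.58 CPM) were above it. The last 500 bases of Rsph3a and Rsph3b were 99.8% identical, so the division of reads between them is uncertain. Rsph3b also had near-identical stretches with Me3 (98.8% over 400 bases) and 1700034P13Rik (98.3% over 402 bases), which a sum of the 2 copies does not cover. Their sum in leptotene to zygotene cells was 108, 48.9 and 51.2 CPM, and in elongating spermatids 41.8, 36.0 and 37.4 CPM.

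Dnah7a had opposite signs with the hairpins. It stood at 11.51 CPM in control cells, 20.7 with hairpin 1 and 10.4 with hairpin 2 over all cells, and at 68.9, 127 and 37.2 CPM in leptotene to zygotene cells. There hairpin 1 was 1.84 times the control (1.48 to 2.27) and hairpin 2 was 0.540 times (0.441 to 0.661). The sum of the 3 Dnah7 copies in these cells was 116, 186 and 80.4 CPM. Members that passed 2-fold with a single hairpin, whatever the other did, were also counted. With hairpin 1, 0 members were higher over all cells (1.88% of genes were) and 0 were lower (1.47%). In spermatogonia 3 of 26 were higher with it, Dnah8, Cfap44 and Cfap70 (2.54% of genes), and 0 lower (2.15%). In elongating spermatids 3 of 31 were higher, Cfap61, Cfap20 and Cfap52 (2.71% of genes), and 1 lower, Rsph3b (1.01%). Cfap61 stood there at 23.4, 49.7 and 26.1 CPM, so hairpin 1 alone was apart from the control. Of these, Cfap44, Cfap70 and Cfap52 were under 10 CPM in the control and passed the filter only through the hairpin libraries. With these counted, the members' share of higher calls with hairpin 1 in spermatogonia and in elongating spermatids was above that of all genes. That share is therefore not read as a result about the members. With hairpin 1 in the other classes, 0 members were higher in leptotene to zygotene (1.11%), pachytene to diplotene (0.558%) and round cells (2.22%), and 0 lower in the last pair (0.734% and 1.41%).

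With hairpin 2, Dnah8 accounted for nearly all such members. It was the 1 member of 44 higher in pachytene to diplotene cells (0.646% of genes), of 41 in round spermatids (1.06%) and of 31 in elongating spermatids (3.54%). Cfap54, which stood at 6.13, 12.9 and 14.5 CPM and passed the filter only through the hairpin libraries, joined it in leptotene to zygotene cells. That made 2 of 38 members there (0.724% of genes). Cfap44 joined Dnah8 in spermatogonia, for 2 of 26 (2.46%). Rsph3a was the 1 member lower with hairpin 2, in leptotene to zygotene cells (1.34%). No member was lower with it over all cells (2.19%), in spermatogonia (2.03%), pachytene to diplotene cells (0.587%), round (0.865%) or elongating spermatids (1.42%).

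A wider list of 89 genes of the axoneme with other symbols gave a frame for the members. Of these, 86 were in the table and 77 were tested over all cells, and 1 was counted as higher and 1 as lower, close to the 1.23% and 0.495% of all genes. Rpap3, a co-chaperone of dynein assembly, stood at 3.89 CPM in control cells, 17.0 with hairpin 1 and 18.2 with hairpin 2. It passed the filter only through the hairpin libraries. Dynlt1a, a dynein light chain of the Tctex family, stood at 39.1, 4.04 and 4.64 CPM and passed the filter only through the control library. Dynlt1a lies at chr17:6306340-6317500, near Rsph3b, in a stretch with several near copies. Of 16 genes tested from 1 Mb before to 1 Mb after the copies of Dynlt1 and Rsph3, 2 were lower with both hairpins, Dynlt1a and Ttll2, a tubulin ligase-like gene (43.4, 20.3 and 19.5 CPM), and 0 were higher; 0.495% and 1.23% of all genes were. This window was chosen after values in it had been seen. Over the whole wider list the medians were 0.34 and 0.23, against 0.23 and 0.25 for all genes. The dynein assembly genes had medians of 0.47 and 0.41 over 13 tested, the nexin-dynein regulatory complex 0.41 and 0.22 over 9, and the dynein chains with other symbols -0.05 and -0.03 over 13. Of the transcription factors on the list, Rfx2, a regulator of ciliary genes in spermatids, stood at 36.5, 49.99 and 42.3 CPM, and Crem, the spermatid activator, at 303, 369 and 348 CPM.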

How the data were processed

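The authors deposited a table of natural log (ln) values per gene and cell, ln of 1 plus 10000 times a gene's UMIs over the cell's total; that scale was read from the values. Per the submitters' processing notes, Cell Ranger 1.3.1, Seurat 2.0.0 and the mm10 build were used; the sources used here do not give the annotation, strand use, cell filter or treatment of doublets before deposit. Whole UMIs were recovered: 100.0% of 20140203 non-zero values were whole within 0.01, and each cell's undone values summed to 10000. No cell was removed and no doublet caller was run. The knockdown columns were matched to the hairpins by the last digit of their names alone; were it wrong, hairpin 1 and hairpin 2 would change places.

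UMIs were summed per library and class and scaled to CPM. Clustering used scanpy 1.11.5 in Python 3.11.15 (2000 variable genes, 30 components, 15 neighbours, Leiden resolution 0.8 with leidenalg 0.10.2), leaving out 140 genes (members, the wider list and Gm4665); a class was compared with at least 50 cells in each library. Clusters were named by their best marker list (at least 3 markers raised 1.5-fold); the bounds that kept cluster 6 as mixed and cluster 11 as unnamed were set after the clusters were seen, and cluster 11 held 1.97%, 4.96% and 3.47% of the libraries' cells. TMM and median-of-ratios factors were computed with an implementation written for this work. Near-identical ends were sought with blastn 2.17.0 (at least 95% identity over 150 of the last 500 bases), and positions came from GENCODE vM21. The steps were tested on simulated data. Members and lists were chosen with earlier results of these data known. Genes were named by a rule: the 10 highest members, members counted over all cells or in a class or just short of it, paralogues of sperm and cilia, and the genes called or highest in the wider list; others are named to illustrate a class or role, and Glo1, U2af1, Btbd9, Zfand3 and Ttll2 were picked after their values were seen.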

Additional observations from a re-analysis of the deposited data

How the results depend on the processing

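Of the recomputed values, 300 kept their verdict, 64 moved and 2 changed sign. No paired analysis was possible because each group had 1 library, and leaving out a replicate would leave a group empty. The comparison of protein sequences between paralogues was not run. What limits depth is the control, with 54 spermatogonia, 80 leptotene to zygotene and 86 pachytene to diplotene cells.

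Counts of members with both hairpins depended on the fold. At 1.5-fold 3 of 40 were higher over all cells (0 at 2-fold, 11.4% of all genes at 1.5-fold) and 8 of 26 in spermatogonia (2, 5.63%). Higher in leptotene to zygotene cells were 3 of 38 (0, 2.18%), in pachytene to diplotene 1 of 44 (0, 1.31%) and in round cells 3 of 41 (0, 3.89%). In elongating cells 9 of 31 were higher (0, 9.63%) and 1 lower (0, 1.9%). The wider list then gave 7 higher (1) and 3 lower (1). Without the expression filter 1 member was lower over all cells, 4 were higher and 1 lower in spermatogonia, and 1 was lower in pachytene to diplotene cells. At a minimum of 30 CPM spermatogonia had 1 higher, and the wider list 0 and 0. A pseudocount of 5 CPM left 1 higher in spermatogonia and 0 lower in leptotene to zygotene cells, and one of 0.1 CPM gave 1 higher there and 1 lower in elongating cells. TMM and median-of-ratios scaling each gave 1 lower in elongating cells and 2 lower in the wider list. On mean ln values, with a difference of 0.5, spermatogonia had 0, leptotene to zygotene cells 0 and the wider list 0 and 0. Leiden resolution 0.5 left 1 in spermatogonia, and it, resolution 1.2 and clustering with all genes gave 0 lower in leptotene to zygotene cells.

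The count of all genes called also moved. Over all cells 87 genes were higher and 35 lower, and 30 and 191 with TMM scaling or 29 and 212 with median-of-ratios scaling.

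The members' median less that of all genes was 0.18 over all cells with hairpin 1 and 0.0272 on mean ln values. With hairpin 2 it was -0.01, and it turned positive at a minimum of 30 CPM (0.12) and with classes weighted to the control (0.13). In spermatogonia it was 0.47 with hairpin 1, then 0.059 on ln values, 0.61 with clusters weighted and 0.28 at resolution 0.5; with hairpin 2 it was 0.46, then 0.053 on ln values. In round spermatids it was 0.25, then 0.14 without the filter, 0.0265 on ln values, 0.13 with clusters weighted and 0.14 at resolution 1.2; with hairpin 2 it was 0.15, then 0.0338 on ln values. In elongating cells it was 0.33, then 0.0482 on ln values and 0.21 clustered with all genes; with hairpin 2 it was 0.28, then 0.39 at 30 CPM and 0.0324 on ln values. An ln difference is on another scale than log2 CPM; beyond that and the fewer genes under a stricter filter, the cause was not tested.

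Peak classes held for 52 of 52 members clustered with all genes and for 45 to 49 in a library alone. In the control alone 3 peaked in leptotene to zygotene (5 in all) and 1 in elongating cells (2 in all), with hairpin 1 alone 10 and 1, with hairpin 2 alone 1 in elongating cells, and 1 in spermatogonia with each hairpin. By UMIs per cell 8 peaked in round and 1 in elongating cells. The members' median level was 23.1 CPM in the control and 30.2 CPM with hairpin 2, and 26.6 and 27.5 CPM with TMM scaling. At their own depth 58.8%, 59.4% and 83.1% of round spermatids had a Dnah8 UMI, and 32.7%, 13.1% and 15.4% of elongating cells an Rsph3b UMI. In the part of the promoter window nearest the start 0 members held a CRE.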
